A study of Drosophila melanogaster with 8 samples.

Results

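Ribosome-bound RNA was compared with total RNA in control S2 cells, to describe which transcripts these cells hold on or off ribosomes in the basal state. The differences are between 4 of the 8 arrays of the series, 2 of ribosome-bound RNA and 2 of total RNA, chosen by their titles, while errors and p-values pool the spread of all 8. S2 is an immortal Drosophila melanogaster line derived from embryonic cells with the character of haemocytes, the blood cells of the fly. Both groups carried the wild-type genotype and had received double-stranded RNA against GFP, a jellyfish protein gene with no counterpart in the fly, so these control cells were not untreated cells. The ribosome-bound samples held the RNA of single ribosomes pooled with that of polysomes; an mRNA with a single ribosome and an mRNA with many therefore counted alike. The other 4 arrays held the same 2 kinds of RNA from cells treated with double-stranded RNA against DENR. Their signals are not part of the differences in control cells, but their spread enters the errors of those differences. They also count in the mean brightness over all 8 arrays, by which probe sets and tested features were chosen.

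A transcript is found with ribosomes when it is being translated, and free of them when it is nuclear, held in a repressed particle, awaiting initiation, or noncoding. Short upstream reading frames, structured leaders and regulatory proteins at the untranslated ends are the best known features that set how much of an mRNA is engaged. Insect blood cells secrete matrix and immune proteins, and they depend on the ribosomes of the endoplasmic reticulum (ER) for it. Each value is a log2 array signal of a probe set, made by the authors with RMA, a method that brings arrays to one distribution. A shift of most transcripts in one direction is removed by it, so a difference says where a transcript stood relative to the others and not what share of its molecules carried ribosomes.

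The 18769 probe sets that are no array controls were reduced to 17104 features, 1 per gene symbol, and the brightest 60% of these, 10262 features with 8164 named genes, were tested. Signals ran from 0.83 to 12.88 and array medians from 2.32 to 2.48. Over the tested features, duplicate arrays of ribosome-bound RNA from control cells differed by a median of 0.15 and those of total RNA by a median of 0.18 on the log2 scale. The group means of the 2 kinds of RNA differed by a median of 0.28, and 983 features differed by more than 1, against 2 between the duplicate ribosome-bound arrays and 22 between the duplicate total arrays. Of 11 haemocyte markers, 10 were above 5 in total RNA. The short lists for neuron (4 genes), muscle (2), fat body (4), gut (4) and follicle cell (3) had no member above 5. Of 4 germline markers only aub was above 5 (8.19 in ribosome-bound RNA and 7.95 in total RNA). Other planned markers, Mhc, Syt1 and nos among them, were not found among the features with 1 symbol. The first principal component of the 8 arrays (65.8% of the variance) separated the 2 kinds of RNA, with scores of 22.3 to 29.4 for ribosome-bound arrays and -35.1 to -9.0 for total arrays; the first DENR knockdown total array stood apart at -9.0.

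In control cells, 1915 features were higher and 1125 lower in ribosome-bound than in total RNA, that is 18.7% and 11.0% of those tested, or 29.6% together (limma, Benjamini-Hochberg adjusted p under 0.05). The higher side also had the larger differences. Among called features, 846 were at least 2-fold higher and 137 at least 2-fold lower, and 89 against 14 passed 4-fold. The median difference of all features was -0.04 with quartiles of -0.26 and 0.32, and the 5th and 95th percentiles were -0.65 and 1.26. Of the called features 63.0% were higher, and this share was 74.1% when the array medians were set equal, a step that moved the median of all features to 0.06. Both arrays of one kind lay above both of the other for 65.2% of features, 31.3% on the higher and 33.9% on the lower side. A fit of the 4 control arrays alone called 1886 higher and 1033 lower. Without control ribosome-bound replicate 2 the counts were 1162 higher and 510 lower, and without control total replicate 2 they were 1245 and 781. The probe sets of the array for dap, thr, phe and lys, bacterial control transcripts that labelling kits supply, also read higher on both ribosome-bound arrays, by 2.08, 1.77, 0.91 and 0.60, and their part in the result was not tested.

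**Figure D1:**
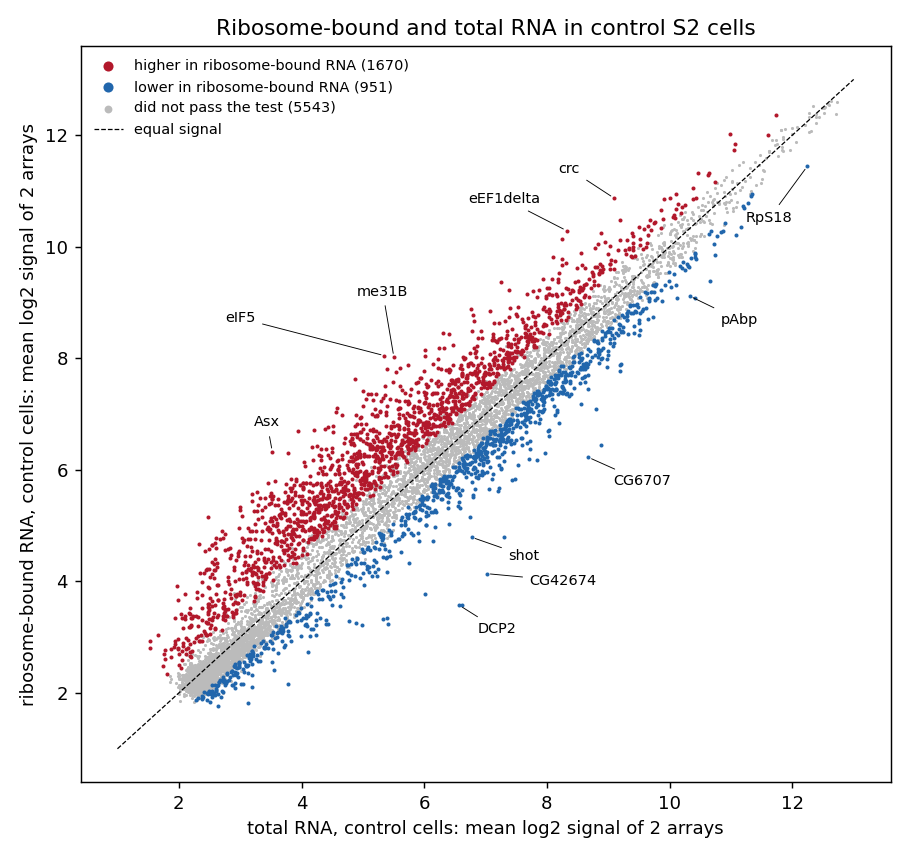
Mean log2 signal of ribosome-bound RNA (vertical axis, 2 arrays) against total RNA (horizontal axis, 2 arrays) in control cells, 1 point per named gene, with genes called higher in red, genes called lower in blue, others in grey and the line of equal signal dashed. The 1670 higher genes spread further from the line than the 951 lower ones, and the brightest genes lie close to it.

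The transcripts most enriched with ribosomes came from genes of very different work. Asx, a Polycomb group protein that acts in histone deubiquitination, read 6.35 and 6.30 on the ribosome-bound arrays, against 3.54 and 3.50 on the total RNA arrays. That was 6.98-fold higher (log2 difference 2.80 ± 0.17, SE, n = 2 per group, adjusted p = 3.04e-05). Ank, an ankyrin that ties spectrin to membranes, had 7.66 and 7.61 in ribosome-bound RNA and 4.83 and 4.92 in total RNA. Each gene named in this paragraph and the next was chosen by a rule that required arrays of the 2 kinds not to overlap. Such arrays were also found for 65.2% of all features. eIF5, the factor that makes eIF2 hydrolyse its GTP at the start codon, read 8.01 and 8.08 in ribosome-bound RNA and 5.25 and 5.45 in total RNA, a difference of 2.70 ± 0.17. nudE, a regulator of dynein, read 4.94 and 5.38 in ribosome-bound RNA, against 2.49 and 2.46 in total RNA. Its total RNA signal lay near the median of all probe sets, where signal and background are hard to separate. me31B, a DEAD-box helicase of repressed mRNA particles, was 5.74-fold higher, at 7.98 and 8.07 in ribosome-bound RNA, against 5.38 and 5.63 in total RNA. Also among the 12 largest were Slmap, a member of the STRIPAK phosphatase complex (2.51), the phospholipase PAPLA1 (2.51), the kinetochore scaffold Spc105R (2.5), the adherens junction protein alpha-Cat (2.43), and CG31999 (2.75), CG10465 (2.47) and CG4972 (2.41).

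At the other end, the largest decrease of a protein-coding gene belonged to DCP2, the enzyme that removes the cap of mRNAs bound for decay. DCP2 read 3.29 and 3.85 on the ribosome-bound arrays, against 6.51 and 6.64 on the total RNA arrays, an 8.03-fold decrease (log2 difference -3.0 ± 0.21, adjusted p = 3.04e-05). Its transcript was thus well above the array median in total RNA and within reach of it in ribosome-bound RNA. HERC2, a giant ubiquitin ligase, had 4.66 and 4.95 in ribosome-bound RNA and 7.66 and 6.94 in total RNA. CG6707 read 6.29 and 6.17 in ribosome-bound RNA and 8.50 and 8.84 in total RNA, a difference of -2.45 ± 0.16. CG7326 differed by -2.44, the fatty acid hydroxylase Fa2h by -2.19, CG12116 by -2.04, the phosphatidylinositol transfer protein rdgB by -2.0, the spectraplakin shot, which crosslinks actin and microtubules, by -1.98, and the cyclin CycY by -1.71. For 3 of the 12 largest, other probe sets of the gene read otherwise. CG42674 was at -2.88 on its brightest probe set, but 2 further sets gave -0.24 and 1.75; a second set of ctrip, a ubiquitin ligase, gave 0.51 against -2.23, and a second set of rdgB -0.16. A probe set for an 18S rRNA pseudogene, 18SrRNA-Psi:CR41602, read 3.65 and 3.50 on the ribosome-bound arrays, against 6.51 and 6.71 on the total arrays. Since its probes can share sequence with the rRNA genes, its source is uncertain. The array's own 18S rRNA control probe sets had no such decrease, averaging 8.57 and 7.76 on the ribosome-bound arrays and 7.42 and 7.84 on the total arrays.

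**Figure D2:**
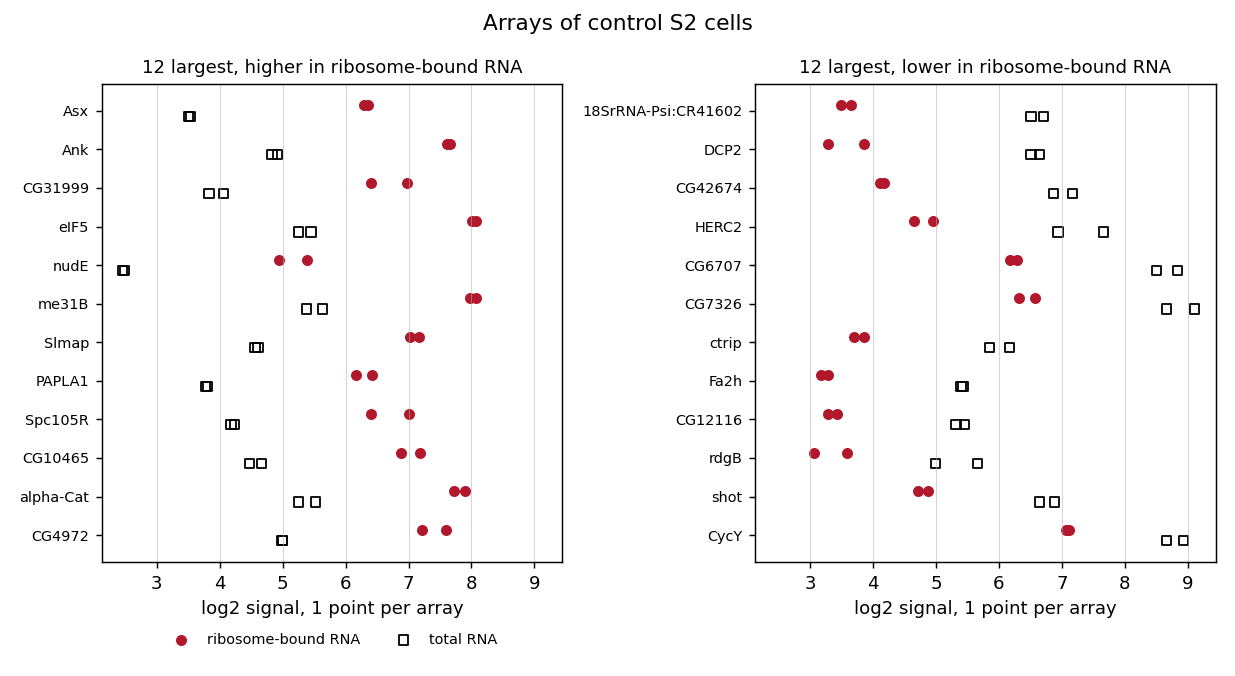
Log2 signal of the 12 genes with the largest positive differences (left panel) and the 12 with the largest negative differences (right panel), 1 point per array, with ribosome-bound RNA as filled circles and total RNA as open squares. The rule that chose the genes required the 2 kinds of RNA to be apart in every row. Several lower genes, DCP2 among them, have ribosome-bound signals under 4.

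Among abundant transcripts, with a mean of at least 9 over the 4 control arrays, the enrichments were smaller. eEF1delta, a subunit of the exchange factor that reloads elongation factor eEF1A, read 10.35 and 10.22 with ribosomes, against 8.30 and 8.34 in total RNA, 3.91-fold higher. ctp, the dynein light chain, was higher by 1.90 ± 0.17, and its second probe set by 0.93. crc, the fly ATF4, read 10.88 and 10.87 with ribosomes and 9.17 and 9.01 in total RNA. CG14545 (1.53), vsg (1.40) and Lamp1, a lysosomal membrane protein (1.36), completed the 6 largest. pAbp, the poly(A)-binding protein that joins the tail of an mRNA to its cap complex, stood on the lower side, with 9.27 and 8.96 in ribosome-bound RNA and 10.19 and 10.47 in total RNA (-1.21 ± 0.19, adjusted p = 0.00129). CG3348 (-1.33), CG13315 (-1.28), CG32425 (-1.03), MFS14, a predicted transporter (-1.02), and Nup205, a nuclear pore scaffold protein (-0.98), were the other abundant transcripts with the largest decreases. The lower signal of CG32425 was that of its brightest probe set, and the other 2 sets gave -0.30 and -0.04.

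The translation machinery was divided. Of 34 cytoplasmic ribosomal protein genes measured, with a median signal of 12.08, only RpS18 was called, beside 29.6% of all features. Their differences ran from -0.80 to 0.28. RpS18 read 11.43 and 11.45 in ribosome-bound RNA and 12.30 and 12.19 in total RNA, and its call ended without control total replicate 1 or without either ribosome-bound array. The median of the ribosomal proteins was -0.05 beside -0.04 for all features, and its sign turned, to 0.04 and 0.03, with array medians set equal or with cyclic loess. Mitochondrial ribosomal proteins, which build the organelle's own ribosomes but are made in the cytosol, were called lower in 20 of 71 (28.2%, beside 11.0% of all features) and higher in 7 (9.86%, beside 18.7%), with a median of -0.25. mRpS29 was at 7.48 and 7.64 with ribosomes and 8.52 and 8.56 in total RNA, and mRpS26 differed by -0.97 ± 0.18. On the higher side, mRpL33 read 9.44 and 9.41 with ribosomes, against 8.16 and 8.19 in total RNA, and mRpS5 differed by 1.27 ± 0.21. The number of lower members was 5 without control ribosome-bound replicate 2, 8 without control total replicate 2, 11 without control ribosome-bound replicate 1 and 13 without control total replicate 1. In knockdown cells, where 5.85% of all features were lower and 9.13% higher, 2 of the 71 were lower and 6 higher. Their median there was -0.04.

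Initiation factors moved both ways, with 9 of 40 higher (22.5%, beside 18.7% of all features) and 8 lower (20%, beside 11.0%) and a median of -0.12. Their median signal was 8.63, and of all features with a signal from 7 to 9, 21.2% were higher and 17.5% lower. Among the lower members, eIF4E4, eIF3g2 and eIF4G2 were faint, with no control array above 3.79. eIF4E4 read 2.11 and 2.16 with ribosomes and 2.51 and 2.75 in total RNA. Beside eIF5, eIF4G1, the scaffold that joins the cap-binding protein to the small ribosomal subunit, read 8.73 and 8.61 with ribosomes, against 6.52 and 7.10 in total RNA (1.86 ± 0.19). eIF1, which guards start codon choice beside eIF5, was higher by 0.85, at 11.34 and 11.30 with ribosomes, against 10.52 and 10.41 in total RNA; eIF1 was named after its value had been seen. eIF4B, which assists the helicase eIF4A, was higher by 1.1 on its brightest probe set, and its other 3 sets gave -0.06, 0.91 and 2.65. The number of lower members was 2 without control ribosome-bound replicate 2 and 4 without control total replicate 2 or control ribosome-bound replicate 1. MCTS1 and DENR form a complex that acts in re-initiation after short upstream reading frames, and eIF2D joins the same domains in 1 protein. MCTS1 read 7.45 and 7.53 with ribosomes and 6.68 and 6.41 in total RNA, 1.92-fold higher. eIF2D was lower by 0.79 ± 0.14, at 6.75 and 6.79 with ribosomes, against 7.60 and 7.52 in total RNA. DENR read 8.41 and 8.26 with ribosomes and 8.28 and 8.18 in total RNA, and its difference of 0.10 ± 0.25 did not pass the test (adjusted p = 0.794).

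Of 7 elongation and termination factors, 3 were higher (42.9%, beside 18.7% of all features) and none lower (beside 11.0%), by limma at an adjusted p under 0.05. These were eEF1delta, the hypusine-bearing factor eEF5 (0.78), and eRF3, the GTPase of termination (1.14). The call of eRF3 ended without control total replicate 2 or control ribosome-bound replicate 2. Aminoacyl-tRNA synthetases, which charge tRNAs, were called in both directions, 9 of 33 higher (27.3%, beside 18.7% of all features) and 7 lower (21.2%, beside 11.0%), with a median of -0.14. The 4 largest were all on the higher side. The mitochondrial AspRS-m differed by 1.52 ± 0.23, CysRS-m by 1.41 ± 0.16, the cytosolic ArgRS by 1.32 ± 0.18 and IleRS by 0.99 ± 0.24. Without control total replicate 2 or control ribosome-bound replicate 2 the call of IleRS ended, and 4 members were higher and 4 lower. Without control ribosome-bound replicate 1 there were 6 higher and 2 lower, and without control total replicate 1 there were 8 and 3.

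The genes of mRNA decay and silencing held the widest range of the lists, from DCP2 at -3.0 to me31B at 2.52. DCP1 and DCP2, both called lower, were added to this list after the files had been read, and the range rests on DCP2. The next lowest called member was Not10 at -0.80, while initiation factors ran from -1.21 to 2.70. Of 30 members 10 were higher (33.3%, beside 18.7% of all features) and 6 lower (20%, beside 11.0%), with a median of -0.09. Their median signal was 6.23, and of all features with a signal from 5 to 7, 29.9% were higher and 14.8% lower. Several proteins that bind decapping enzymes or repress mRNAs were on the higher side. Patr-1, the fly Pat1 protein that bridges deadenylation and decapping, read 6.33 and 5.95 with ribosomes, against 4.26 and 3.81 in total RNA, 4.30-fold higher. Dcr-2, the dicer of small interfering RNAs, read 5.81 and 5.69 with ribosomes and 3.86 and 3.62 in total RNA. 4E-T, which binds the cap-binding protein eIF4E in the same particles but was not on the list, read 6.70 and 6.89 with ribosomes and 4.30 and 4.74 in total RNA (2.28 ± 0.17). Further members, named after their values had been seen, were the deadenylase subunit Not3 (1.53), the decapping scaffold Ge-1 (1.38) and the microRNA effector gw (0.89) on the higher side, and DCP1, the activator of DCP2 (-0.73), Not10 (-0.80) and pcm, the cytoplasmic exonuclease that follows decapping (-0.69), on the lower side. Without control ribosome-bound replicate 2, the calls of DCP1 and Not10 ended, and DCP2 and pcm were the 2 members called lower.

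Genes of ribosome biogenesis were mostly higher: 15 of 29, or 51.7% beside the 18.7% of all features, against 1 lower, with a median of 0.42. Nop17l, related to a yeast assembly factor of box C/D particles, read 5.67 and 5.67 with ribosomes and 3.98 and 4.07 in total RNA (1.64 ± 0.23). Polr1B, the second largest subunit of RNA polymerase I, read 7.09 and 7.31 with ribosomes, against 5.84 and 5.66 in total RNA. CG12301 differed by 1.57 ± 0.21, and the nucleolar phosphoprotein Nopp140 by 1.38 ± 0.21. Without control ribosome-bound replicate 2, 9 members were higher, and without control total replicate 2, 10 were. Knockdown cells had 12 higher members, where 9.13% of all features were higher, and none lower by the same limma test, with a median of 0.30.

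Members of the ATF4 and integrated stress response list were called in 1 direction alone, 9 of 16 higher (56.2%, beside 18.7% of all features), with a median of 0.62. The response slows general initiation through phosphorylated eIF2, while messages with suitable upstream reading frames, crc and the mammalian PPP1R15 genes among them, are known to be translated. PPP1R15, the phosphatase subunit that ends the response, read 7.51 and 7.58 with ribosomes, against 6.51 and 6.30 in total RNA (1.14 ± 0.15). Of the amino acid transporters on the list, mnd differed by 1.76 ± 0.30 and path by 1.34 ± 0.25. mnd read 7.07 and 6.86 with ribosomes, and its total RNA arrays were the wider pair at 5.68 and 4.73. The count was 5 without control total replicate 2 and 6 without control ribosome-bound replicate 2. In knockdown cells, where 9.13% of all features were higher, 4 of the 16 were, with a median of 0.18.

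**Figure D3:**
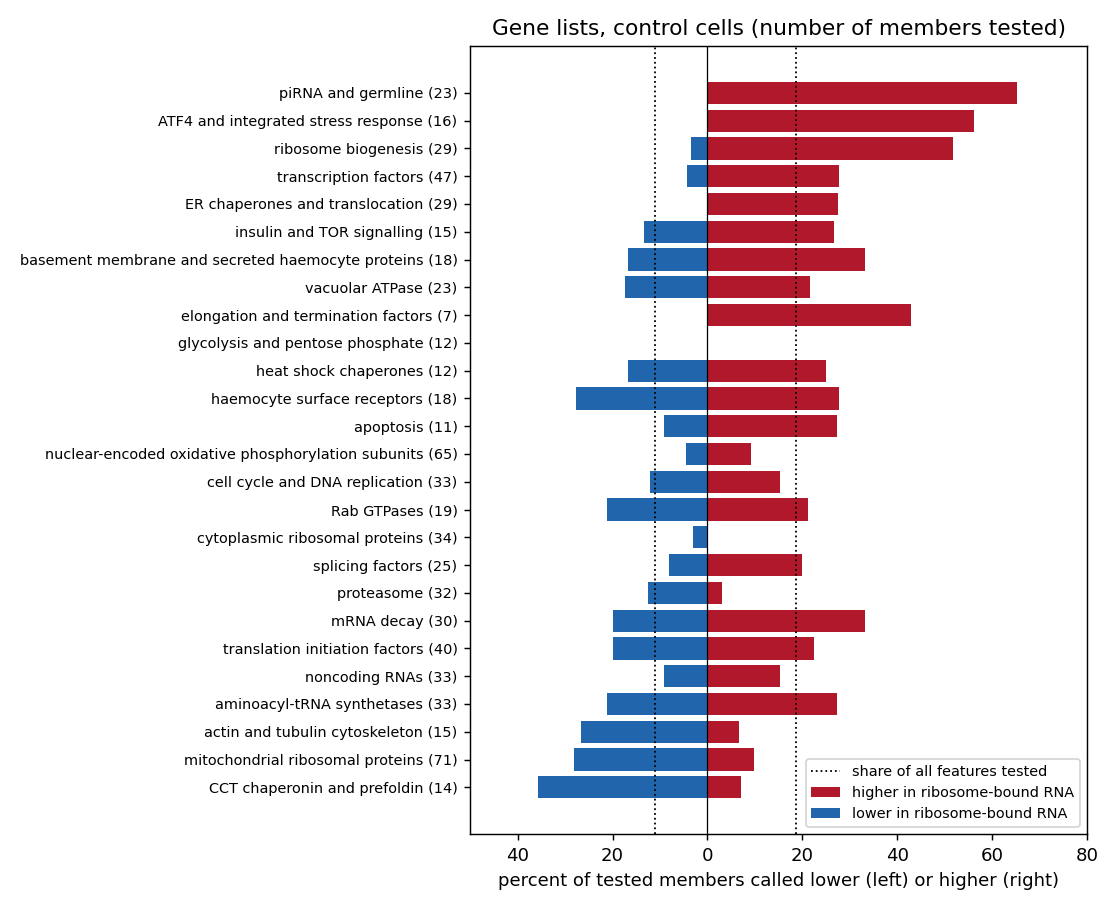
Share of the tested members of each gene list with at least 5 members tested that were called higher (red, right of 0) or lower (blue, left of 0) in ribosome-bound than in total RNA of control cells, in percent, with the number tested in brackets, lists ordered by their median difference, and dotted lines at the shares of all features (18.7% and 11.0%). The piRNA, stress response and ribosome biogenesis lists reach furthest to the right, and the chaperonin and mitochondrial ribosome lists furthest to the left.

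Of the piRNA pathway and germline genes, 23 of the 27 on the array were tested, and 15 of these were higher (65.2%, beside 18.7% of all features) and none lower, with a median of 0.75. This pathway silences transposons in the gonad. For 2 of the 15, AGO3 and del, the mean in total RNA lay below 2.12, the lowest mean tested, so they passed the filter through their other arrays. piwi, its nuclear effector, read 7.71 and 8.04 with ribosomes and 5.87 and 5.61 in total RNA, 4.42-fold higher. krimp, a Tudor protein of the perinuclear nuage, read 7.32 and 7.54 with ribosomes, against 5.53 and 5.73 in total RNA. cuff, of the nuclear complex at piRNA clusters, differed by 1.49 ± 0.23 at signals of 3.91 and 4.21 with ribosomes and 2.59 and 2.55 in total RNA. Its partner del read 2.84 and 3.85 with ribosomes and 2.01 and 1.88 in total RNA, the total RNA signals below the array medians, and its difference of 1.40 was 0.90 without control ribosome-bound replicate 2. Not all members were faint, since armi, a helicase of piRNA production named after its value had been seen, read 7.91 and 8.14 with ribosomes and 6.76 and 6.52 in total RNA. aub, the brightest germline marker, did not pass the test at 0.23 ± 0.16 (adjusted p = 0.291). With 1 array left out the count of higher members was 11 to 15, and in knockdown cells, where 9.13% of all features were higher, 6 were, with a median of 0.41.

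In the list of ER chaperones and of the machinery that brings proteins into the ER, 8 of 29 members were higher (27.6%, beside 18.7% of all features). None was lower by limma, and the median was 0.17. Atf6, a sensor of unfolded protein, read 6.52 and 6.34 with ribosomes, against 4.15 and 4.37 in total RNA, 4.50-fold higher. Trp1, the Sec62 subunit of the translocon, differed by 1.72 ± 0.22, Ostgamma, of the oligosaccharyltransferase, by 1.05 ± 0.13 and Sec61gamma, of the channel, by 0.88 ± 0.13. The count was 5 without control ribosome-bound replicate 1. Secreted and matrix proteins were called in both directions, 6 of 18 higher (33.3%, beside 18.7% of all features) and 3 lower (16.7%, beside 11.0%), with a median of 0.12. LanA, a laminin chain, read 9.39 and 9.45 with ribosomes and 8.04 and 7.84 in total RNA, and LanB1 differed by 1.22 ± 0.24. The growth factor Idgf1 (1.22) and hemolectin, Hml (1.19), were higher as well. The collagen IV chains Col4a1 and vkg, named after their values had been seen, were lower, by 0.61 and 0.57 in size: Col4a1 read 9.32 and 9.45 with ribosomes and 10.17 and 9.81 in total RNA, and vkg 10.14 and 10.40 with ribosomes and 11.01 and 10.66 in total RNA. Both collagen calls, and that of the third lower gene, Ppn, ended without control total replicate 1 or control ribosome-bound replicate 1.

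Haemocyte surface receptors were called 5 times in each direction among 18 (27.8%, beside 18.7% and 11.0% of all features), with a median of 0.02. Their median signal was 5.72, and of all features with a signal from 5 to 7, 29.9% were higher and 14.8% lower. eater, a phagocytic receptor for bacteria, read 7.91 and 7.61 with ribosomes and 5.35 and 5.74 in total RNA, 4.65-fold higher. The scavenger receptor Sr-CI differed by 1.20 ± 0.18. Dscam1 was called higher, but at 3.78 and 3.56 with ribosomes and 2.17 and 1.81 in total RNA its total RNA signals lay below the array medians. Their mean lay below 2.12, the lowest mean tested, so Dscam1 passed the filter through its other arrays. NimC4, a receptor for apoptotic cells, was lower at 3.29 and 3.19 with ribosomes, against 4.42 and 4.43 in total RNA. In knockdown cells, where 9.13% of all features were higher and 5.85% lower, 4 of the 18 receptors were higher and none lower by limma. NimC4 differed by 0.14 there. Of the 11 haemocyte markers, which share members with both lists, 5 were higher (45.5%) and 2 lower (18.2%), beside 18.7% and 11.0% of all features. Among them srp, the GATA factor of blood cell fate, read 8.94 and 8.88 with ribosomes and 7.49 and 7.30 in total RNA.

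Of 47 transcription factors 13 were higher (27.7%, beside 18.7% of all features) and 2 lower (4.26%, beside 11.0%). Their median signal was 5.32, and of all features with a signal from 5 to 7, 29.9% were higher and 14.8% lower. The median difference was 0.29, and 0.09 without the filter on faint features. The nuclear receptor Hr39 read 6.50 and 6.31 with ribosomes, against 4.11 and 4.23 in total RNA, on the brightest of its probe sets, and the other sets tested gave 0.44 and 0.47. Stat92E, the effector of JAK signalling, read 7.94 and 8.36 with ribosomes and 6.02 and 5.99 in total RNA. Next in size were crc, given above, and tgo, the common partner of bHLH-PAS factors (1.75 ± 0.37), whose call ended without control ribosome-bound replicate 2. The count of higher members was 8 without that array or without control total replicate 2, and the median was 0.07 without that array. In knockdown cells, where 9.13% of all features were higher and 5.85% lower, 9 were higher and 6 lower, and the median was 0.03.

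In insulin and TOR signalling 4 of 15 members were higher (26.7%, beside 18.7% of all features) and 2 lower (13.3%, beside 11.0%). Their median signal was 5.95, and of all features with a signal from 5 to 7, 29.9% were higher and 14.8% lower. The 2 largest differences of the list had opposite signs. The median was 0.16, and -0.07 without control total replicate 2. The higher members numbered 1 without control ribosome-bound replicate 2, 2 without control ribosome-bound replicate 1 or control total replicate 2, and 3 without control total replicate 1. chico, the insulin receptor substrate, read 4.66 and 5.15 with ribosomes, against 2.40 and 3.01 in total RNA (2.20 ± 0.22). Akt, the kinase further down the pathway, read 5.23 and 5.08 with ribosomes, against 6.47 and 7.02 in total RNA (-1.59 ± 0.20, adjusted p = 0.000359). REPTOR, a factor that TOR restrains, and Lst8, a TOR complex subunit, differed by 0.92 and 0.68, and neither call held without control ribosome-bound replicate 2; Lst8 stood at 0.42 without control total replicate 2. Of 11 apoptosis genes 3 were higher (27.3%, beside 18.7% of all features) and 1 lower (9.09%, beside 11.0%). Their median signal of 6.85 fell in the same class from 5 to 7. egr, the fly tumour necrosis factor, read 8.23 and 8.64 with ribosomes and 6.44 and 6.39 in total RNA, and its second probe set gave 1.06. Dredd, an initiator caspase, read 6.54 and 6.83 with ribosomes and 8.04 and 7.98 in total RNA. Dark, the fly Apaf-1, differed by 1.03 ± 0.16, and Strica, a caspase, by 0.51 ± 0.15. The call of Strica ended without either control total array or without control ribosome-bound replicate 2.

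Of 14 chaperonin and prefoldin genes, which fold actin and tubulin, 5 were lower (35.7%, beside 11.0% of all features) and 1 higher (7.14%, beside 18.7%), with a median of -0.27. CCT3 read 9.25 and 9.32 with ribosomes, against 9.96 and 10.07 in total RNA, and Pfdn1 was the higher one at 0.67 ± 0.13. The number of lower members was 1 without control total replicate 1 or control ribosome-bound replicate 2 and 3 without control total replicate 2. Of 15 actin and tubulin cytoskeleton genes 4 were lower (26.7%, beside 11.0% of all features) and 1 higher (6.67%, beside 18.7%). betaTub97EF differed by -0.96 ± 0.13 and the actinin Actn by -1.14 ± 0.20. The lower members numbered 2 without control ribosome-bound replicate 2 and 3 without any other control array, and the higher ones 0 to 2. The proteasome had 4 of 32 lower (12.5%, beside 11.0% of all features), led by the base ATPase Rpt2 (-0.67 ± 0.14), and 1 higher (3.12%, beside 18.7%), Prosbeta6 (0.39), whose call ended without any single control array. Oxidative phosphorylation subunits encoded in the nucleus had 6 of 65 higher (9.23%, beside 18.7% of all features) and 3 lower (4.62%, beside 11.0%), from ND-75 at -0.89 to COX7A at 0.87, with a median of -0.02 whose sign turned with array medians set equal or with cyclic loess, and 1 or 2 were higher when any single control array was left out. None of 12 genes of glycolysis and the pentose phosphate path was called by limma, beside 29.6% of all features. Their range was the narrowest of the lists with at least 5 members tested, from Ald1 at -0.29 to Tpi at 0.31.

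Other lists had calls in both directions. The vacuolar ATPase, the proton pump of lysosomes, had 5 of 23 higher (21.7%, beside 18.7% of all features) and 4 lower (17.4%, beside 11.0%). Its median signal was 6.89, and of all features with a signal from 5 to 7, 29.9% were higher and 14.8% lower. Vha26, its E subunit, read 7.66 and 7.89 with ribosomes and 5.96 and 6.03 in total RNA (1.78 ± 0.19). The lower members VhaAC39-2 and Vha36-2 were faint, Vha36-2 at 1.96 and 2.08 with ribosomes and 2.40 and 2.43 in total RNA. With any single control array left out, 3 or 4 pump genes were higher and 1 or 2 lower. Rab GTPases of membrane traffic were called 4 times in each direction among 19 (21.1%, beside 18.7% higher and 11.0% lower of all features). Rab23 differed by 1.74 ± 0.25 and Rab27 by -1.0 ± 0.17, while 1 to 3 Rab genes were lower with any single control array left out. Cell cycle and replication genes had 5 of 33 higher (15.2%, beside 18.7% of all features), led by the replication factor Mcm10 at 6.26 and 6.47 with ribosomes and 4.87 and 3.94 in total RNA, and 4 lower (12.1%, beside 11.0%). With any single control array left out, 3 to 8 were higher and 1 to 4 lower. CycD was higher by 1.28 ± 0.21 and the mitotic kinase Bub1 by 1.01 ± 0.16. CycB, at 0.93, was not called without control total replicate 2 or control ribosome-bound replicate 2. Splicing factors had 5 of 25 higher (20%, beside 18.7% of all features) and 2 lower (8.00%, beside 11.0%). Only 1 was higher without control total replicate 2 or without control ribosome-bound replicate 2. The kinase SRPK (1.24 ± 0.23) kept its call without any single array. Among heat shock chaperones, 3 of 12 were higher (25%, beside 18.7% of all features) and 2 lower (16.7%, beside 11.0%). The median signals of this list (6.95), of the Rab GTPases (5.54) and of the cell cycle genes (6.85) fell in the class from 5 to 7. In that class 29.9% of all features were higher and 14.8% lower. DnaJ-1, the Hsp40 protein, read 6.97 and 6.98 with ribosomes and 5.58 and 4.89 in total RNA. Of the other calls in that list none held without control ribosome-bound replicate 2. Histones of the array that carry 1 symbol were few: His2Av differed by 0.78 and the centromere histone cid by -0.58, both calls lost without control ribosome-bound replicate 2.

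Noncoding RNAs, which have no reading frame for ribosomes to follow or only short ones, were mostly faint. Of 33 tested, with a median signal of 3.43, 5 were higher (15.2%, beside 18.7% of all features) and 3 lower (9.09%, beside 11.0%). Their median was -0.13, beside -0.12 for all features with a signal up to 3 and 0.02 for those from 3 to 5. Both hairpin RNAs, precursors of endogenous small interfering RNAs, were lower. hpRNA:CR33940 read 6.01 and 5.24 with ribosomes, against 6.97 and 7.43 in total RNA (-1.58 ± 0.28), and hpRNA:CR32207 read 5.86 and 5.47 with ribosomes, against 7.16 and 7.28 in total RNA (-1.55 ± 0.19). lncRNA:CR31044 was lower by 0.87 in size. On the higher side, asRNA:CR43944 read 4.99 and 5.32 with ribosomes and 3.68 and 3.41 in total RNA, lncRNA:CR30055 read 6.56 and 6.48 with ribosomes and 5.32 and 5.29 in total RNA, and CR44101 differed by 1.18 ± 0.14. lncRNA:CR42862 was higher by 1.85 on its brightest probe set, and its other sets gave 0.96 and -0.45. The smallest increase, that of lncRNA:CR42549 (0.68), was not called without control ribosome-bound replicate 2. Bright noncoding RNAs that did not pass the test included lncRNA:CR32368 at 10.53 and 10.32 with ribosomes and 10.68 and 10.64 in total RNA, and the snoRNA host Uhg4 at 10.33 and 10.05 with ribosomes and 10.44 and 10.42 in total RNA.

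Sorting the named genes by chromosome, a grouping chosen after values had been seen, set the small chromosome 4 apart from the arms. Chromosome 4 is mostly heterochromatic, and its genes are coated by a protein particular to that chromosome. Of its 41 genes tested, out of 65 on the array, 32 or 78.0% were higher and none lower by limma. Of these 41, 37 had a positive difference, and the median was 1.29 with a range of -0.19 to 2.76. Asator, 1 of the 32, had a mean in total RNA below 2.12, the lowest mean tested. It passed the filter through its other arrays. On the arms 2L, 2R, 3L and 3R, 23.8%, 21.3%, 22.9% and 19.0% of genes were higher, and on X 13.4%. Genes of chromosome 4 named above are Ank, CG31999, 4E-T, eIF4G1 and gw. Slip1 read 6.03 and 6.10 with ribosomes and 3.97 and 4.14 in total RNA, the zinc transporter Zip102B 5.44 and 5.52 with ribosomes and 3.25 and 3.78 in total RNA, and the calsyntenin Cals 5.83 and 5.83 with ribosomes and 3.89 and 3.91 in total RNA. Rnf11, its brightest gene tested, did not pass the test, with 10.57 and 10.59 in ribosome-bound RNA and 10.34 and 10.42 in total RNA. Its genes are longer than others, with a median span of 11301 bases in the RefSeq gene table. Among genes of other chromosomes within its quartiles of span (5625 to 16465 bases), 357 of 1219 were higher (29.3%, median 0.09), and within its quartiles of signal 895 of 2959 were (30.2%, median 0.11). The count of higher genes on chromosome 4 was 27 to 32 with 1 array left out and 31 or 32 under the 3 other normalizations. In knockdown cells, where 9.13% of all features were higher and 5.85% lower, 24 of the 41 were higher and none lower. Their median there was 0.78.

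On X, unlike on chromosome 4 and the autosomal arms, lower genes outnumbered higher ones, 216 (15.8%) against 184 of 1371, with a median of -0.11. With array medians set equal, 152 were lower and 208 higher, and without control total replicate 1 or control ribosome-bound replicate 1 the higher genes also outnumbered the lower ones, so the order of the 2 counts on X depended on these choices. The share of X genes called higher was below that of each autosomal arm in the main setting. In knockdown cells, where 5.85% of all features were lower and 9.13% higher, 123 X genes were lower and 82 higher.

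**Figure D4:**
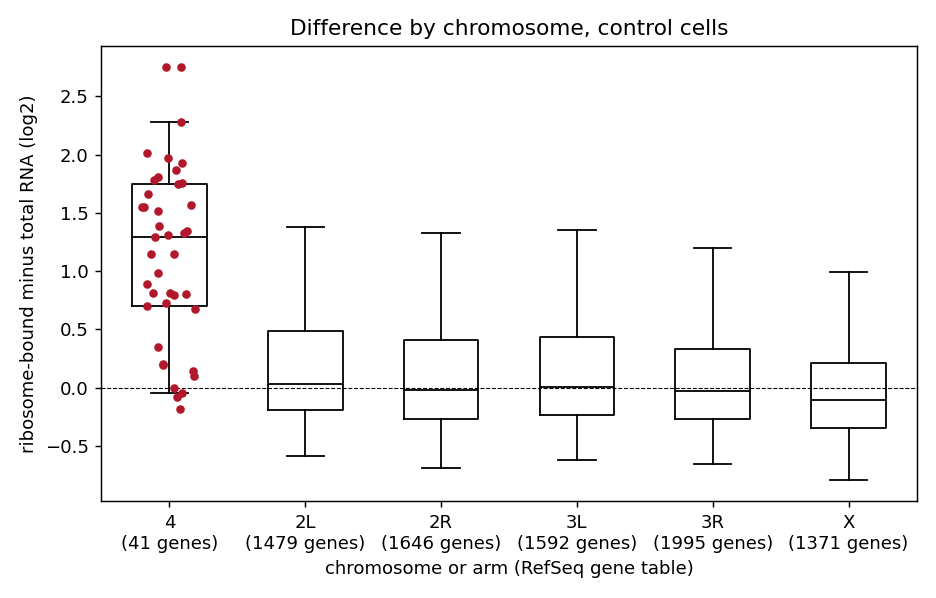
Ribosome-bound minus total RNA (log2, vertical axis) in control cells by chromosome or arm, as boxes of the quartiles with the median and whiskers from the 5th to the 95th percentile; each of the 41 genes of chromosome 4 is also drawn as a point. The lower edge of the chromosome 4 box lies above the upper edge of every other box, and the X box is the lowest.

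The share of genes called differed with their span and signal. By span in the RefSeq gene table, the share of higher genes was 11.8% under 1000 bases, 16.1% from 1000 to 2000, 20.1% from 2000 to 4000, 30.5% from 4000 to 8000, 29.1% from 8000 to 16000, 25.1% from 16000 to 32000 and 19.8% beyond. The share of lower genes had no such rise, with 14.1% from 1000 to 2000 bases as its highest value and 6.13% beyond 32000 as its lowest. By mean log2 signal, higher features made up 3.25% up to a signal of 3, 27.2% from 3 to 5, 29.9% from 5 to 7, 21.2% from 7 to 9, 15.7% from 9 to 11 and 5.11% above that. Lower features made up 4.31%, 9.34%, 14.8%, 17.5%, 14.2% and 5.11% of the same classes, so the faintest and the brightest transcripts were called least on both sides. The shares of all features set beside the lists above include the faintest class. Each class with a signal from 3 to 9 had more higher features than the 18.7% of all features. Span includes introns, and transcript or coding length was not used here. On the array's own fly mRNA controls, the 3′ probe sets exceeded the 5′ ones by 5.85 in ribosome-bound and 5.71 in total RNA for actin. The same values were 4.54 and 4.24 for GAPDH and 5.61 and 5.41 for eIF4A. Of the bacterial transcripts, dap had the smaller value in ribosome-bound RNA, 3.81 and 4.92. The others had 4.77 and 4.74 (lys), 4.17 and 4.08 (phe) and 4.30 and 4.19 (thr). The part of such slopes in the differences was not tested.

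The same comparison in DENR knockdown cells mostly had the same direction. Its 4 arrays enter the control results through the pooled error and through the mean brightness that chose probe sets and tested features. Of the 1915 features higher in control cells, 1822 (95.1%) were also positive in knockdown cells and 864 were called higher there, against 1 called lower. Of the 1125 lower ones, 1058 (94.0%) were negative and 391 called lower, with none called higher by limma. Over all features 46.6% were positive and 53.4% negative in knockdown cells, where 937 features (9.13%) were called higher and 600 (5.85%) lower, 15.0% together. These features were chosen by their call in control cells. The higher ones had a median of 0.56 in knockdown cells and 0.93 in control cells, and the lower ones -0.37 in knockdown cells and -0.63 in control cells. Without the first knockdown total array, which stood apart from its duplicate, 97.7% and 96.2% kept their direction, 1035 and 345 were called the same way, and the medians were 0.70 and -0.45. Across the 10262 features, the 2 sets of differences had Pearson's r = 0.819 and Spearman's rho = 0.687, where features are not independent replicates. DCP2 differed by -3.57 in knockdown cells against -3.0 in control cells, eIF5 by 2.44 against 2.70, me31B by 2.27 against 2.52, and Asx by 1.87 against 2.80. Fa2h and CG12116 were at -0.62 and -0.70 in knockdown cells against -2.19 and -2.04 in control cells. The test of the difference between knockdown and control cells called no feature (0.00%; limma interaction contrast, with 1022 features at an unadjusted p under 0.05). DENR, the target of the double-stranded RNA, read 5.40 and 4.46 with ribosomes and 7.38 and 7.60 in total RNA of knockdown cells, a difference of -2.56 against 0.10 in control cells (adjusted p of the difference between treatments = 0.101).

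**Figure D5:**
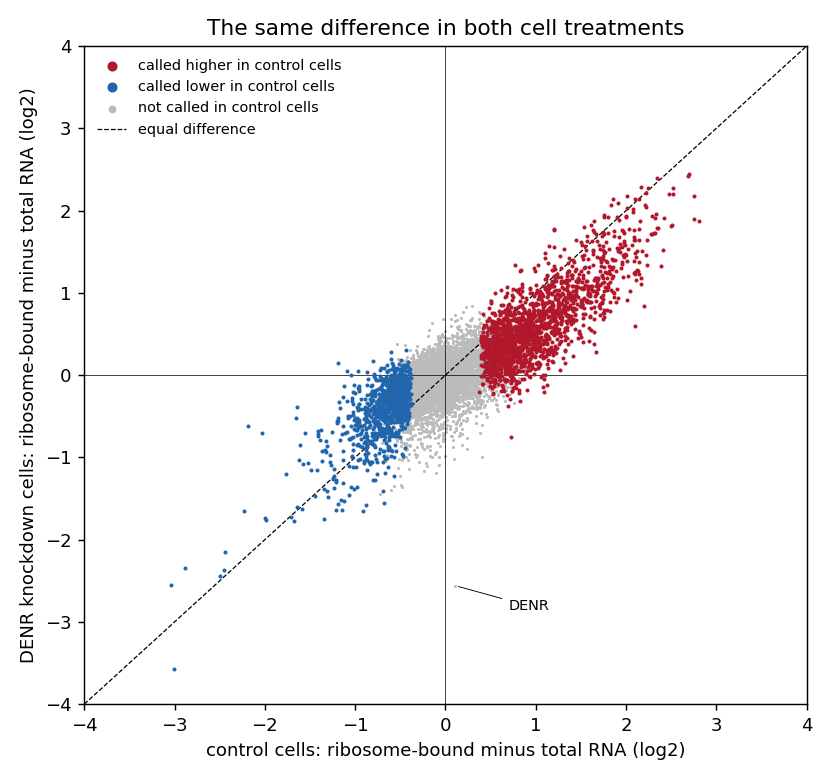
Ribosome-bound minus total RNA (log2) in DENR knockdown cells (vertical axis) against control cells (horizontal axis), 1 point per named gene, coloured by its call in control cells, with the line of equal difference dashed. Most red and blue points keep their side of 0 in knockdown cells, and DENR lies alone below the grey cloud.

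Probe sets of the same gene did not always read alike. Of 506 genes with more than 1 set tested, 221 had a call on at least 1 set, 28 had all their sets called in the same direction and 15 had sets called in opposite directions, CG42674 and lncRNA:CR42862 among them. The value of a gene is therefore that of its brightest probe set, and the arrays do not say which transcript form it stands for.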

How the data were processed

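The deposited values were log2 signals per probe set that the authors made with RMA from Affymetrix arrays, per the submitters' processing notes; its version, its settings and whether the 8 arrays were normalized together are not given in the sources used here. The log2 scale was read from the range of the deposited values. Of 18952 probe sets, 183 controls were left out; 13647 had 1 symbol, 402 several and 4720 none in the platform annotation, and 13544 matched a RefSeq gene table of assembly Release 6 by identifier. The brightest probe set by mean over all 8 arrays stood for each of 1094 genes with several. Features without exactly 1 symbol were tested but not named. Features with a mean over the same 8 arrays of at least 2.12 were tested. Of the 1670 named genes called higher, 34 had a mean below that in total RNA of control cells. No detection calls and no sequences were used, only the chromosome and span of a gene were taken from the RefSeq gene table, and precision is limited by the small number of arrays.

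A single limma 3.58.1 fit (R 4.3.3) of 4 group means, 2 arrays each, without covariates gave the contrast of ribosome-bound over total RNA for control cells, the same for knockdown cells, and the difference of these. Tests were two-sided, with 4 residual and 5.93 prior degrees of freedom, so the SE pools the spread of all 4 groups. The median SE was 0.16. A call needed an adjusted p under 0.05, by the Benjamini-Hochberg method over all 10262 features. Lists were described by counts and medians, without set tests.

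The gene lists and the rule for named genes were chosen with earlier results of these data known. Some list entries were corrected, and DCP1 and DCP2 added to the mRNA decay list, after the files had been read. The rule took the 12 largest called differences of each sign whose arrays did not overlap and whose higher group averaged at least 5, the 6 largest of each sign at a mean of at least 9, up to 4 called members of each list (or 2 where none was called), every noncoding RNA tested, and DENR, MCTS1 and eIF2D. Genes of chromosome 4 and others so marked were added after values had been seen. In simulated data with 100 genes of 10262 changed at each size, 99% were recovered at log2 1 and 100% at log2 2, and 14 unchanged features were called. The simulated noise was normal and independent between arrays, with the fitted spread, and most features were unchanged. In the arrays themselves 29.6% of features were called, so these rates do not measure the sensitivity of that comparison. Figures were drawn with matplotlib 3.10.9.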

Additional observations from a re-analysis of the deposited data

Results flagged for a closer look

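Control probe sets outside the tested features gave a signal that differed between the 2 kinds of RNA. The bacterial transcript dap averaged 8.37 and 7.47 on the ribosome-bound arrays of control cells, against 5.32 and 6.36 on the total RNA arrays, a difference of 2.08 on the log2 scale. The transcript thr had 6.14 and 5.40 in ribosome-bound RNA and 3.58 and 4.42 in total RNA (1.77), phe had 5.15 and 4.50 in ribosome-bound RNA and 3.65 and 4.19 in total RNA (0.91), and lys had 4.84 and 4.35 in ribosome-bound RNA and 3.69 and 4.30 in total RNA (0.60). In knockdown cells dap read 7.27 and 7.03 in ribosome-bound RNA and 6.0 and 5.89 in total RNA. There thr had 5.22 and 4.83 in ribosome-bound RNA and 4.0 and 4.07 in total RNA, and phe 4.29 and 4.13 against 3.88 and 3.77. The arrays of lys overlapped there, with 4.26 and 4.01 in ribosome-bound RNA and 4.13 and 3.99 in total RNA. The hybridisation controls bioB, bioC, bioD and cre differed by -0.37, -0.33, -0.22 and -0.03. The 3′ minus 5′ difference of 18S rRNA was 0.80 and 1.01 in ribosome-bound RNA and -0.47 and -0.45 in total RNA. None of these values was tested against the differences of the fly transcripts.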

How the results depend on the processing

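Against 1915 higher, 1125 lower and 3040 called features, a minimum of 1.5-fold left 472, 76 and 548, and setting array medians equal left 711 lower. The other planned settings and the added ones kept each count within 1.5 times of the main one, with 1405 to 2319 higher and 835 to 1609 lower, apart from leaving out 1 array: then 1162 to 2038 were higher, 510 to 1213 lower and 1672 to 3251 called. With the replicate number as a block, 1818 were higher and 974 lower; same-numbered arrays did not deviate together (correlations of -0.203 in control and -0.306 in knockdown cells), and a crossed block gave 2319 and 1609. The share of higher calls was 58.5% with quantile normalization within each kind of RNA and 60.2% with cyclic loess. Medians moved beyond the limits set by the spread for the stress response list without the filter (0.49), mitochondrial ribosomal proteins with array medians equal (-0.16), cytoplasmic ribosomal proteins with array medians equal (0.04) or cyclic loess (0.03), chaperonins with array medians equal (-0.18), transcription factors without the filter (0.09) or with a mean of at least 5 (0.50, chosen after seeing the data), and chromosome 4 with the brightest 40% (1.55). With 1 array left out, the medians ran from 0.30 to 0.50 for ribosome biogenesis, 0.52 to 0.72 for the stress response, 0.59 to 0.96 for piRNA genes, -0.34 to -0.22 for mitochondrial and -0.09 to -0.04 for cytoplasmic ribosomal proteins, 0.07 to 0.29 for transcription factors, -0.32 to -0.15 for chaperonins, 1.08 to 1.29 for chromosome 4 and -0.14 to -0.07 for X. The cause of these moves was not tested. Of 139 called named genes, 75 were called under every alternative in which they were tested, and no named gene's called value reversed. Faint genes, cuff among them, were not tested at a mean of at least 5, so the 75 were not all tested in every setting. Under the minimum of 1.5-fold, 64 lost the call, and some of these also lost it with 1 array left out. Signals near the array medians limit the faint genes.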
